A study of Mus musculus with 2 samples.

Results

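The transglutaminase genes Tgm1, Tgm2, Tgm3, Tgm5 and Tgm6 were examined in the tooth and the skin of newborn wild-type mice. They were found as all non-control probes of the array whose gene name was one of these 5 symbols. This gave 7 probes out of 55675, and 5 genes out of 24323 named on the array. Total RNA from P0 WT tooth (postnatal day 0 per the labels) and from P0 WT skin was labelled with Cy3 and hybridised to 1 array per tissue, so no difference below has a replicate check and no test was run. The study's methods give the stage as 1 day later, describe the tooth sample as tooth germ, name C57BL/6J as the wild-type strain, and do not state how many animals were used. The tooth RNA mixed epithelium with mesenchyme, and the skin RNA included hair follicles, so in such bulk samples fewer cells of a type and less RNA per cell cannot be told apart.

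Transglutaminases are calcium-dependent enzymes that join the side chain of a glutamine in one protein to that of a lysine in another. In the outer epidermis these bonds knit loricrin, involucrin, filaggrin and the small proline-rich proteins into the cornified envelope, the insoluble shell that replaces the plasma membrane of a dying keratinocyte. Tgm1 is the membrane-anchored enzyme of keratinocytes, and its loss causes a scaling skin disease, lamellar ichthyosis. Tgm3 is a soluble proenzyme of epidermis and hair follicle that is cut by proteases to become active, and Tgm5 acts in the upper epidermis, where its loss causes peeling skin. Tgm2 is the widely expressed tissue enzyme that also binds GTP and cross-links extracellular matrix, and Tgm6 is known mainly from the nervous system.

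Each probe reads a stretch of 60 bases, so the values that follow are values of these stretches and not of whole transcripts. The beginning of each probe is given because the account of Tgm3 turns on where its probes lie. The first 30 of the 60 bases are printed 5′ to 3′ in lower case, with no part marked, and the coordinates are those of the whole probe in mm9.

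Tgm1 (chr14:56319032-56319091, minus strand): tgacagtcgctctggggagaacatacctat
Tgm2, upstream probe (chr2:157942431-157942490, minus strand): aaagcgtggaagcctgtgtgggggtcatca
Tgm2, downstream probe (chr2:157942275-157942334, minus strand): ctgggaagaatcaaactgatgcatttaacg
Tgm3, upstream probe (chr2:129874069-129874128, plus strand): tcgctgacttttcctgcaataaattcccta
Tgm3, downstream probe (chr2:129876035-129876094, plus strand): aagtcatccttgccttccttcctttccttc
Tgm5 (chr2:120871953-120872012, minus strand): acaatcctctgtaaccccattttcagggga
Tgm6 (chr2:129979240-129979299, plus strand): tttctgaagccataagacaaagcagaaaca

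Whether a probe lies in coding sequence or in a UTR was not analysed here. No probe of the family shared a run of more than 9 bases with another probe of the family. The 5 genes lie on chromosomes 14 and 2. In the RefSeq annotation of GRCm38.p6, Tgm5 stands between Epb42 and Tgm7, both also members of the family, and 1 coding gene, AU015228, separates Tgm3 from Tgm6.

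Intensities are given as the extraction software processed them, with the error (1 SD) that it estimated for the spot. Scaled values are log2 of the intensity minus the log2 of the array's 75th percentile, and each difference is skin minus tooth on this scale with an SE from the same spot errors. These errors cover the spot and not the animals, the dissection or the labelling. A probe is called detected when the software put it well above background. Over 17409 named genes detected on at least 1 array, 14.2% had at least a 2-fold higher value in skin and 15.5% did in tooth, and the median difference was -0.04 (log2). Scaling to spike-in transcripts in place of the 75th percentile lowered every difference by 0.62 and changed these shares to 9.03% and 32.4%. The tissues matched their labels, since the enamel genes Amelx, Ambn and Enam were detected in tooth only, and the epidermal keratins Krt1 and Krt10 differed by 9.93 and 8.39 (log2) toward skin. Transglutaminases of the envelope belong to epithelium, and 4 epithelial markers (4 of 4 detected on both arrays) differed by 0.06 to 1.19 toward skin. These were Cdh1 (0.06), Epcam (0.66), Krt5 (0.94) and Krt14 (1.19).

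By the brightest probe of each gene, 3 of the 5 transglutaminases passed the 2-fold limit toward skin (Tgm5, Tgm1 and Tgm6), 1 passed it toward tooth (Tgm2), and Tgm3 was nearly equal. The median over the 5 genes was 1.03 (log2), which is the value of the dim gene Tgm6. Count and median rest on the downstream probe standing for Tgm3. By the mean of its probes Tgm3 was at 2.86, and the count toward skin was 4. With 5 genes these counts are a description beside the shares of 14.2% and 15.5% among all named genes. Tgm6 sat at the edge of the 2-fold limit and passed it under 6 of 10 alternative settings. The deposited table gave 1.05. The other passes were settings of probe averaging, detection filter and bound, which could not change the value of 1 probe detected on both arrays. Tgm6 fell below the limit under normexp background correction (0.69) and under median (0.79), quantile (0.82) and spike-in scaling (0.41). Under each of these, 2 of the 5 genes were at least 2-fold higher in skin. Tgm6 stayed higher in skin under all 10, with a lowest difference of 0.41.

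**Figure D1:**
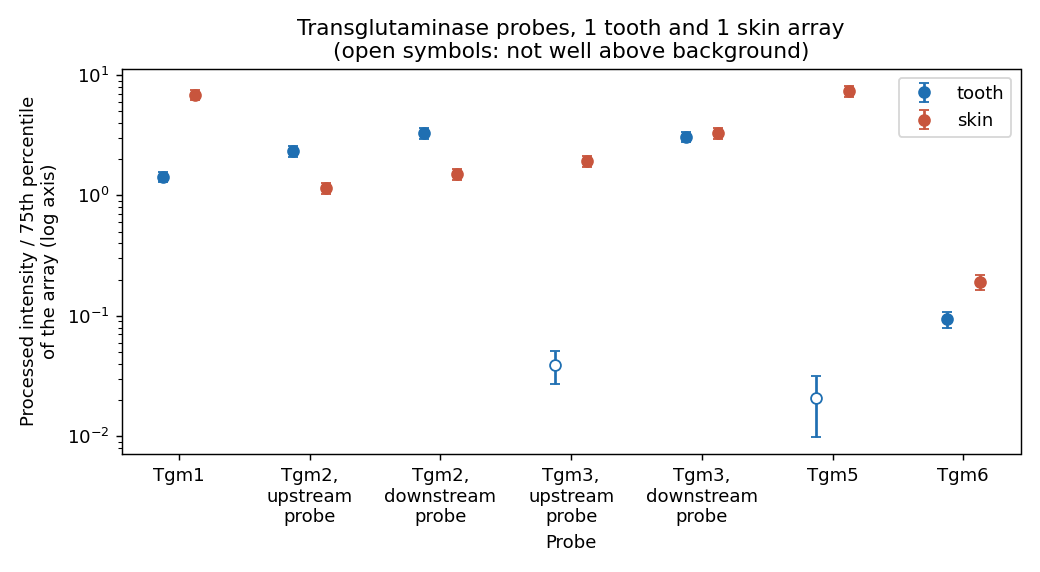
Processed intensity of each transglutaminase probe divided by the 75th percentile of its array, on a log axis, for the tooth array (blue) and the skin array (red), with bars for the error (1 SD) estimated by the extraction software. Tgm5 and the upstream probe of Tgm3 were not well above background in tooth (open symbols), whereas the downstream probe of Tgm3 was bright in both tissues.

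Tgm1 was measured on both arrays. Its intensity was 609 ± 61.1 in tooth and 1889 ± 189 in skin, or 0.51 and 2.77 after scaling. The spot errors did not overlap. The difference was 2.26 (SE 0.20), a 4.80-fold higher value in skin, and 1121 of the 17409 genes differed by more toward skin. The keratinocyte enzyme was thus also well above background in the tooth, at a value above the 75th percentile of all probes there.

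Tgm5 had the largest difference of the 5 genes. Its intensity was 8.92 ± 4.67 in tooth, not well above background, and 2032 ± 203 in skin. After scaling, skin was at 2.88. Set against the lowest signal that counted as well above background on the tooth array, Tgm5 was at least 168-fold higher in skin. With the dim tooth value as measured, 65 of the 17409 genes differed by more. The next genes on the chromosome did not share this signal, as Epb42 and Tgm7 were dim in both tissues, without a call well above background.

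Tgm2 was the member higher in tooth, and its probes gave similar values. The downstream probe read 1409 ± 141 in tooth and 415 ± 41.8 in skin. The difference was -1.13 (SE 0.20), a 2.19-fold higher value in tooth. The upstream probe, which starts 156 bases earlier in the transcript, read 994 ± 99.5 in tooth and 316 ± 31.9 in skin. Its difference was -1.02 (SE 0.21). The tooth was higher by both probes, beyond the spot errors, and the probes differed from each other by only 0.11 (log2).

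Tgm6 was dim in both tissues but detected on both arrays. It read 40.0 ± 6.34 in tooth and 52.9 ± 7.56 in skin. The spot errors of these unscaled readings overlapped. After scaling, the values were -3.42 and -2.38, a difference of 1.03 (SE 0.31), or 2.05-fold.

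Tgm3 gave different pictures by its probes. The upstream probe, which starts at base 2043 of the transcript, read 16.8 ± 5.22 in tooth, not well above background, and 533 ± 53.6 in skin. By this probe Tgm3 was at least 44.2-fold higher in skin. The downstream probe starts at base 4009, which is 1966 bases farther along the same RefSeq transcript. It read 1316 ± 132 in tooth and 909 ± 91.0 in skin. After scaling these were 1.62 and 1.72, a difference of 0.10 (SE 0.20) that is smaller than its own error. Per the array's annotation, the upstream probe matches 2 Ensembl transcripts of Tgm3, and the downstream probe matches 1 of them. In tooth, therefore, the stretch common to both transcripts gave a signal near background while the distal stretch was above the 75th percentile. In skin both stretches were bright.

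Such a gap between probes of a gene was rare on these arrays. Among 3853 named genes with exactly 2 probes that were each detected on at least 1 array, the gap between the differences had a median of 0.31 (log2). For Tgm3 the gap was 5.52, and 15 of these genes (0.389%), Tgm3 included, had a gap at least as wide. The gap for Tgm2, 0.11, was reached or passed by 77.5% of them. The gap for Tgm3 uses the dim tooth value of its upstream probe as measured. At the bound, the upstream probe differed by 5.46 between the tissues. Under normexp background correction the upstream probe differed by 3.26 and the downstream probe by 0.05. The share of genes with so wide a gap was not recomputed for these settings. Probe sequence, transcript ends and binding of other RNAs were not tested as sources of the gap.

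**Figure D2:**
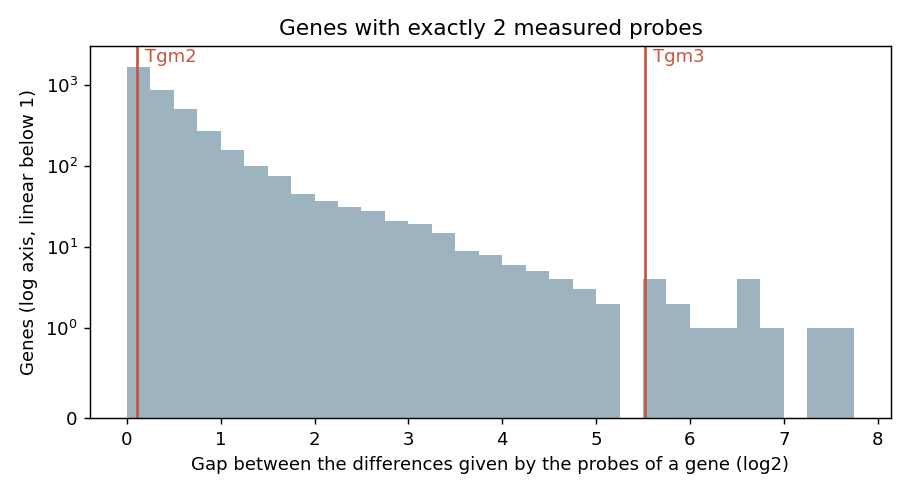
Number of genes (log axis, linear below 1) by the gap between the skin minus tooth differences of their probes, over the 3853 genes with exactly 2 measured probes, in bins of 0.25 (log2). Tgm2 lies in the first bin, and Tgm3 at 5.52 lies in the sparse tail.

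The rest of the family was compared with these members. F13a1, the catalytic subunit of clotting factor XIII, read 392 ± 39.4 in tooth and 566 ± 56.8 in skin by its brighter probe, a difference of 1.16 (SE 0.20). The other probe of F13a1 was dim in both tissues and has no fold. Tgm4, known from the prostate, was dim and nearly equal, at 47.4 ± 6.14 in tooth and 31.2 ± 5.35 in skin, with a scaled difference of 0.03 (SE 0.31). Tgm7 and Epb42, a red cell membrane protein without catalytic activity, were near background in both tissues and have no fold. F13a1 is also made by macrophages, and the 4 macrophage markers differed by -1.79 to 0.52 with a median of -0.01. Their part in the value of F13a1 was not tested.

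The proteins that transglutaminases join were then described from a list of 20 genes. Of these, 17 (85%) passed the 2-fold limit toward skin, also with dim values at their bound, beside 14.2% among all named genes. The median difference was 6.98 (log2), or 6.68 when dim values stood at their bound. Tgm1 (2.26) and Tgm6 (1.03) therefore differed by less than the median substrate, and the bound of Tgm5 (7.39) by more. Under normexp, a model-based background correction, the order of Tgm5 and the substrates turned, with 5.25 for Tgm5 and a substrate median of 5.45. Among substrates detected on both arrays, filaggrin, Flg, which bundles keratin filaments, differed by 12.89 and Krt1 by 9.93. The filaggrin relatives Hrnr and Flg2 were detected in skin only and were at least 1529-fold and 732-fold higher. Loricrin and involucrin are named here outside the rule for naming genes, after their values were seen, because they are the best known substrates. Lor had a scaled value of 1.44 in tooth and 10.56 in skin, 9.11 apart. Ivl was detected in skin only, at least 92.1-fold higher. S100a10 (0.41) and S100a11 (0.40) were within 2-fold. Sprr3, a small proline-rich protein of moist epithelia, was detected in tooth only, at -3.93. This value lies below the lowest signal well above background in skin (-3.73), so Sprr3 has no fold and no direction. With the dim skin value as measured (-5.86) it would be the 1 substrate past the 2-fold limit toward tooth, and with the bound there were 0.

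In the inner root sheath of the hair follicle, Tgm3 cross-links trichohyalin with keratin filaments. All 7 genes of this list passed the 2-fold limit toward skin, beside 14.2% among all named genes, and their median was 6.44 (log2). Tchh, which encodes trichohyalin, had a scaled value of -0.29 (tooth) and 6.16 (skin), a difference of 6.44. Krt71 differed by 11.98 and Krt72 by 6.68, and Krt25 was detected in skin only, at least 2759-fold higher. The upstream probe of Tgm3 (at least 44.2-fold, a bound of 5.46 on the log2 scale) lay within the range of this list, from 4.92 to 13.53, while its downstream probe (0.10) lay below every gene of it.

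The lipid layer of the envelope is bound to the proteins that Tgm1 cross-links, and loss of many genes that build it causes ichthyosis, as does loss of Tgm1. All 10 genes of this list passed the 2-fold limit toward skin, beside 14.2% among all named genes. Their median was 5.66 (log2), or 4.91 with dim values at their bound. The median was 3.01 under normexp background correction. Abca12, the lipid transporter of lamellar granules, was detected in skin only and was at least 103-fold higher. The lipoxygenases Alox12b and Aloxe3 differed by 7.07 and 6.96, and the ω-hydroxylase gene Cyp4f39 was detected in skin only, at least 37.8-fold higher. The other probe of Alox12b gave 1.52.

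Proteases turn Tgm3 into its active form. Cathepsin L (Ctsl) cuts Tgm3, legumain (Lgmn) processes the cathepsin, and cystatin M/E (Cst6) inhibits both. Of the 5 genes of this list 2 passed the 2-fold limit toward skin and 0 toward tooth, beside 14.2% and 15.5% among all named genes. Cst6 was the gene that stood apart, at 0.50 in tooth and 6.82 in skin, which is 6.32 higher. The proteases were detected in both tissues. Ctsl differed by 0.39, cathepsin D (Ctsd) by 1.004, calpain (Capn1) by 0.999 and Lgmn by -0.86. Ctsd lay just above the 2-fold limit and Capn1 just below it, and the other probe of Ctsd gave 0.57.

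Of 12 transcription factors of epidermal differentiation, 9 (75%) passed the 2-fold limit toward skin and 0 toward tooth, beside 14.2% and 15.5% among all named genes. The median was 2.36 (log2), close to the difference of Tgm1. The largest differences were those of Grhl1 (5.67), Ovol1 (5.39), Cebpa (4.66) and Hopx (3.24). Grhl3, a grainyhead-like factor known to act on Tgm1 in wound repair and barrier formation, differed by 3.16 and is named outside the rule, after its value was seen. The 3 factors within 2-fold were Trp63 (0.16), the p63 gene that maintains stratified epithelia, Rxra (0.77) and Zfp750 (0.94), and they are likewise named outside the rule. The downstream probe of Tgm3 (0.10) was closest to Trp63 among the genes of the pathway lists measured on both arrays, although the epithelial marker Cdh1 (0.06), which is in no pathway list, was closer. In the pathway lists, Tgm1 was closest to the envelope protein gene Evpl (2.29) and to Cebpb (2.31). With 1 array per tissue this likeness rests on a single difference.

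Matrix proteins and receptors that Tgm2 binds or cross-links did not share 1 direction. Of 9 genes, 2 passed the 2-fold limit toward skin, 2 passed it toward tooth and 5 lay within it, and the median was -0.70 (log2). Each count of 2 is 22.2% of the list, beside 14.2% (skin) and 15.5% (tooth) among all named genes. With 9 genes these counts are a description only. Bone sialoprotein, Ibsp, differed by -7.43, and osteopontin, Spp1, was detected in tooth only, at least 55.0-fold higher. Sdc4, a heparan sulfate proteoglycan, differed by 1.44 toward skin, and vitronectin, Vtn, was detected in skin only, at least 2.34-fold higher. Ltbp1 was higher in skin by 0.56. Among the genes of the pathway lists, Lgmn (-0.86) and the fibronectin gene Fn1 (-0.84) were closest to Tgm2, and the mesenchyme marker Vim (-0.98), which is in no pathway list, was closer. Tgm2 is made by endothelium and mesenchyme as well as by other cells. The 4 mesenchyme markers differed by -3.17 to -0.98, all higher in tooth, and the 4 endothelial markers by -2.70 to 0.50 with a median of -0.83. Tek was detected in tooth only, and with its bound the endothelial median was -0.52. The other probe of Kdr gave -2.19, against 0.43 by its brighter probe. Their part in the value of Tgm2 was not tested.

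**Figure D3:**
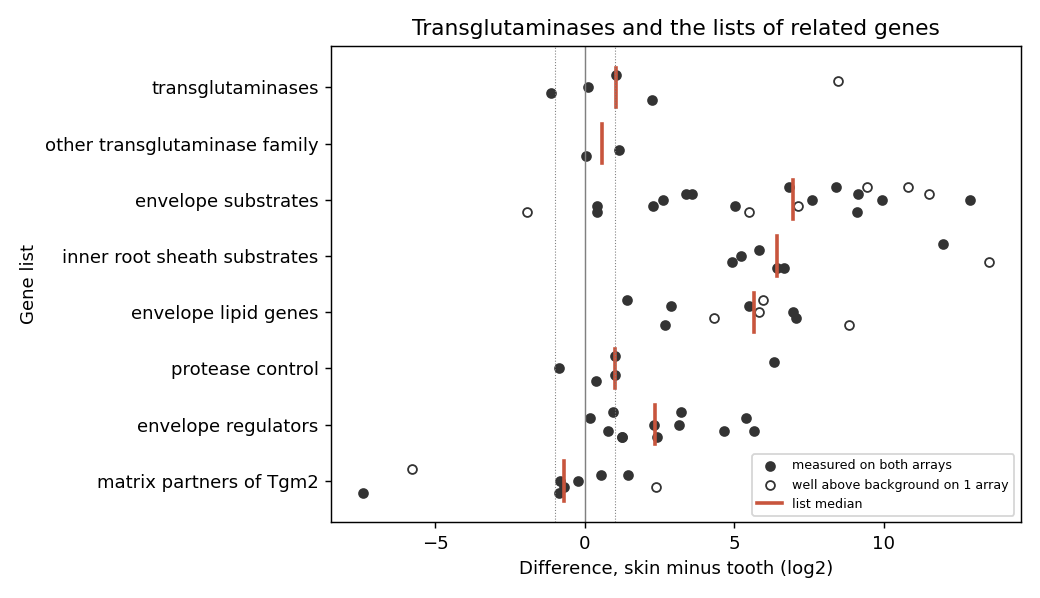
Skin minus tooth difference (log2) of each transglutaminase and of each gene in the lists of related genes, with the list median in red and dotted lines at the 2-fold limits. Open symbols are genes well above background on only 1 array, drawn at the dim value as measured. The transglutaminases spread from -1.13 to 8.46, while all genes of the inner root sheath and envelope lipid lists lie to the right of the 2-fold limit.

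Other cell types also differed between the samples. The 4 skeletal muscle markers differed by 2.80 to 3.82, all toward skin. Of the 3 fat markers, Fabp4 differed by 4.07 toward skin, and Adipoq and Plin1 were detected in skin only, at least 39.5-fold and 8.70-fold higher. The dentin and bone markers Dspp, Dmp1 and Bglap were all at least 2-fold higher in tooth. Whether these cells contribute to the transglutaminase values was not tested.

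The sequences upstream of the genes higher in skin are shown because Tgm1, Tgm5 and the upstream probe of Tgm3 shared this direction. The windows hold the 250 bases before an annotated start in RefSeq (GRCm38.p6), 5′ to 3′ on the strand of the gene, with matched motifs in capitals. The motifs searched were the AP-1 site TGANTCA, the grainyhead-like site AACCNGTT and the GC box GGGCGG on both strands, and the TATA box TATAAA on the strand of the gene. In the windows shown, no match of a motif overlapped a match of another. Among 32851 windows of the same length, TGANTCA was found in 6.75%, AACCNGTT in 1.79%, GGGCGG in 32.7% and TATAAA in 7.59%.

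Tgm1 (chr14:55713493-55713742, minus strand): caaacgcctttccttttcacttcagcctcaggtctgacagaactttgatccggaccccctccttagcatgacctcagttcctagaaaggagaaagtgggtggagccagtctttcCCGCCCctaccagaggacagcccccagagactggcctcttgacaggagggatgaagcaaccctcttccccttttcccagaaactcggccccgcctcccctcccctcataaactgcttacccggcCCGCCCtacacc
Tgm3 (chr2:130012090-130012339, plus strand): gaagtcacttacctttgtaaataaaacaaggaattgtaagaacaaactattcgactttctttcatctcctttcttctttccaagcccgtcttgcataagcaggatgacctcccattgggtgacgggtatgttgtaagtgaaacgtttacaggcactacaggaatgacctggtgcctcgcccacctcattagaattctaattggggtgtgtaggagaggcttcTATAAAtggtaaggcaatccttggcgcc
Tgm5 (chr2:121085842-121086091, minus strand): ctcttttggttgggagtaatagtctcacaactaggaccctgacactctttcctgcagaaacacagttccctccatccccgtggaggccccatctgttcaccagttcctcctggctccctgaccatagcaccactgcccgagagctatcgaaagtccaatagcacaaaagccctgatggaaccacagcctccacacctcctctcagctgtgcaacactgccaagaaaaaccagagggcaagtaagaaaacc

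The window of Tgm3 held TATAAA 28 bases before the start. That of Tgm1 held the GC box on the opposite strand at 136 and 12 bases before the start, and its other annotated start had none of the 4 motifs in its window. The window of Tgm5 held none of them, nor did either window of Tgm6. No window for Tgm2 was read. A match of letters is a description of the window only.

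**Figure D4:**
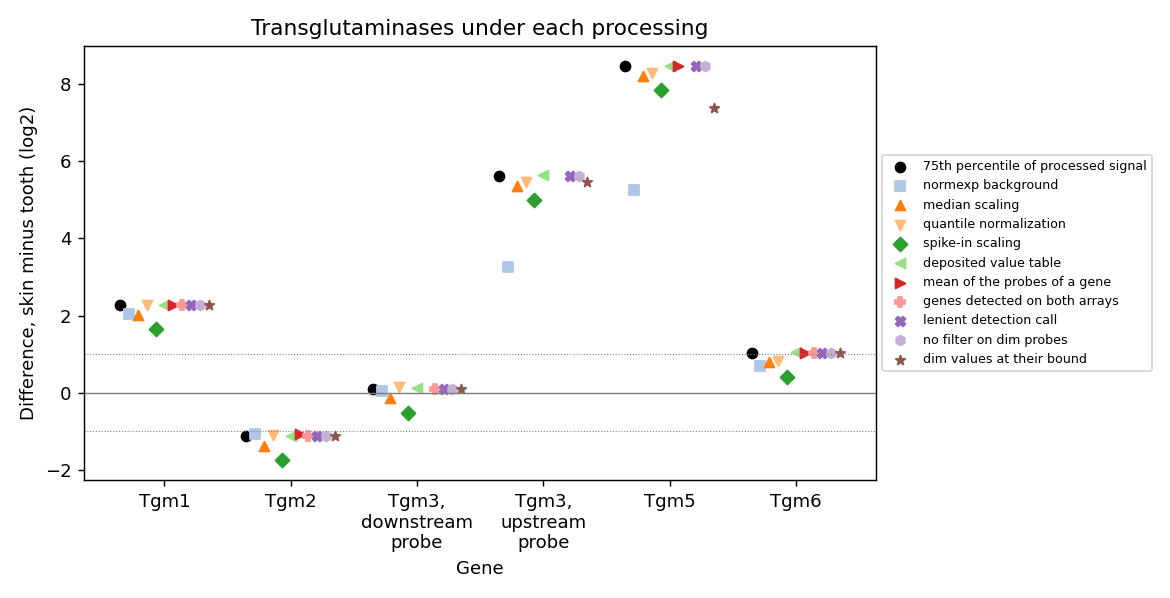
Skin minus tooth difference (log2) of each transglutaminase under the reported processing (black) and each alternative, with dotted lines at the 2-fold limits. The differences of Tgm1, Tgm5 and the upstream probe of Tgm3 stayed above the 2-fold limit and those of Tgm2 below it, whereas Tgm6 fell under the limit in part and the downstream probe of Tgm3 changed sign. The mean of the Tgm3 probes (2.86) is not drawn.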

How the data were processed

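RNA of tooth and skin was measured on 1 Agilent mouse array each. The authors deposited spot intensities from Agilent Feature Extraction (version 10.7.3.1), which had been background-subtracted and detrended within each array, and a table in which each value is the ratio of the processed intensity to 1 factor per array (431 for tooth, 275 for skin). Per the file headers, probe coordinates are in mm9. Here, outlier spots were left out (137 and 146 of 59305), spots of a probe were averaged as log2 intensity, and the 75th percentile of each array (428 and 276) was set to 0. Saturation affected 0 spots. On the tooth array 56.7% of probes and on the skin array 52.5% were well above background (over 50% of spots). The lowest such signal was -4.52 and -3.73 (log2), and a dim probe was given a bound against it. The number of arrays limits the precision, and no test or p-value was possible. The brightest probe stood for a gene. Accessions of 82.1% of the named probes matched RefSeq, and other names were those of the array. Sequences came from the array files and RefSeq. Protein sequences were not used here, so the planned placing of probes in coding sequence and comparison of active sites were not done.

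The members and gene lists were chosen with earlier results of these data known. Named genes were all family members, the 4 largest differences of each list, list members that went against their list, and the 2 genes closest to each member. Alternatives were normexp background (limma 3.58.1, offset 50), median, quantile and spike-in scaling (8 spike-ins), the deposited table, the mean of probes, other detection filters and values at the bound. The averaging of spots and the percentile scaling were checked on simulated data, made from the tooth array with known shifts and noise. Quantile normalization was checked on a small example, and the other steps were not checked in this way. Python 3.11.15 and R 4.3.3 were used.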

Additional observations from a re-analysis of the deposited data

How the results depend on the processing

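Tgm1, Tgm5 and the upstream probe of Tgm3 were higher in skin, and Tgm2 higher in tooth, by at least 2-fold under every alternative that gave them a value (10, 9, 8 and 10 alternatives). For Tgm2 this holds for the downstream probe and the mean of its probes, and the smallest difference was -1.06 under normexp. The upstream probe of Tgm2, at -1.02 under the reported processing, lay at the edge of the limit and was not followed alone. Not all of these alternatives could change a value. The detection filters returned the reported value wherever they gave one, and so did the bound for Tgm1 and Tgm2. Averaging of probes left the single-probe genes Tgm1 and Tgm5 unchanged. Under spike-in scaling the differences (log2, skin minus tooth) were 1.64 for Tgm1, -1.76 for Tgm2, -0.53 for the downstream probe of Tgm3, 4.996 for its upstream probe and 0.41 for Tgm6. By construction this scaling lowers each difference by the same amount. Median scaling gave 2.02 for Tgm1, -1.38 for Tgm2 and -0.15 for the downstream probe of Tgm3. Normexp background correction, whose offset draws dim values together, gave 2.04 for Tgm1, 5.25 for Tgm5, 3.26 for the upstream probe of Tgm3 and 0.69 for Tgm6. The mean of its probes put Tgm3 at 2.86, because it averages the probes that disagree. With the dim tooth value at its bound, Tgm5 was at 7.39. The count of members at least 2-fold higher in skin ranged from 2 to 4, and the count for tooth stayed at 1. Among the lists, the median of the other family genes reached -0.03 under spike-in scaling, the only median among the pathway lists to change sign. Under the reported processing this median was 0.60 and rested on 2 measured genes, Tgm4 and F13a1. The lenient detection call put it at 1.16. Marker lists were not recomputed. Tgm5 has no value among genes detected on both arrays. The size of Tgm6 and of the dim tooth values is limited by signals near background. Genes detected on both arrays gave a median of 4.19 for the envelope lipid list. No paired analysis was possible because each tissue had 1 array.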

Other observations

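The stretch of chromosome 2 between the Tgm3 and Tgm6 probes held 2 other probes of the array. The probe of AU015228 (chr2:129928841-129928900, mm9, plus strand) was dim in both tissues, with an intensity of 8.14 in tooth and 16.0 in skin. A probe without a gene name (chr2:129948607-129948666, minus strand) was well above background on both, with an intensity of 158 in tooth and 28.5 in skin and a scaled difference of -1.84 (log2, skin minus tooth). It thus lay between a probe of Tgm3 that was nearly equal in both tissues (0.10) and the probe of Tgm6 (1.03), and was the only one of the 5 probes of this stretch with a value more than 2-fold higher in tooth. These probes were looked at after the gap between the Tgm3 probes had been seen.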
